A study of Mus musculus with 36 samples.

Results

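Gene expression in mouse motor neurons was compared after 1 day in medium conditioned by mutant SOD1 (mSOD1) astrocytes and after 1 day in medium conditioned by wild-type SOD1 (wtSOD1) astrocytes. The 12 libraries of this comparison, 6 per medium, were taken by their labels from the 36 RNA sequencing libraries of the series, and all genes with enough reads were tested. The neurons of every group were made from embryonic stem cells of Hlxb9-GFP1Tmj transgenic mice, in which the HB9 (Mnx1) promoter drives eGFP, or eGFP with the surface protein CD2, and they were collected on a magnetic column through CD2. The astrocytes were grown from cord or cortical tissue of newborn pups, from matings between SOD1 transgenic and non-transgenic mice. The mSOD1 pups over-expressed SOD1 with the disease mutation G93A, the wtSOD1 pups over-expressed the unaltered enzyme, and medium of non-transgenic (NTg) astrocytes on the same day served for comparison. The SOD1 difference thus lay in the cells that made the medium and not in the neurons sequenced. The labels describe the astrocyte cultures as 95% GFAP-positive, with 5% CD11b-positive microglia that were shaken off, and all media received GDNF, BDNF and CNTF. The sources used here do not tell which media came from cord and which from cortex. Libraries are labelled by experiment, 1 to 6, and those sharing a number in the 2 media were treated as a pair. The labels do not say that these experiments used separate neuron cultures or astrocyte preparations, so the p-values measure the spread between these libraries.

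Type I interferons act through a receptor whose signal brings STAT2 and IRF9 into the complex ISGF3. This complex binds interferon-stimulated response elements and turns on antiviral genes. NF-kB, released when its inhibitor is destroyed, turns on chemokines, adhesion molecules and the inhibitor's own gene. In neurons, calcium entry during activity turns on immediate-early genes such as Fos and Npas4 through CREB and related factors, while ATF4 turns on genes for amino acid uptake and tRNA charging when amino acids are short.

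The mSOD1 libraries held 8.58 to 18.8 M reads in genes (median 12.7 M) and the wtSOD1 libraries 10.5 to 88.9 M (median 15.5 M), where M stands for mega-reads. The library of 88.9 M reads is wtSOD1 replicate 4, which stood apart. It lay at 47.7 on the first principal component of the 12 libraries (19% of the variance), against -15.5 to -0.335 for the mSOD1 libraries and -5.3 to 5.51 for the other wtSOD1 libraries. In it, 596 genes were more than 2-fold away from the mean of the rest of its group, against 204 to 427 in single mSOD1 libraries and 233 to 304 in the other wtSOD1 libraries. Results are therefore given with and without it. The defining markers of motor neurons were present in every library. Mnx1, the gene of HB9, stood at 86.9 to 124 CPM (read counts scaled to library size) in mSOD1 medium and 97.5 to 118 in wtSOD1 medium. Isl1, another factor of motor neuron identity, stood at 139 to 163 CPM in mSOD1 medium and 142 to 164 CPM in wtSOD1 medium. Chat, which makes acetylcholine, stood at 196 to 252 CPM in mSOD1 medium and 208 to 238 CPM in wtSOD1 medium. Sod1 of the neurons was at 36.8 to 48 CPM in mSOD1 medium and 35.9 to 51 CPM in wtSOD1 medium (log2 difference -0.05 ± 0.08, estimate ± SE, adjusted p = 0.861). It does not check the labels, because the transgenes were in the astrocytes.

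In mSOD1 medium 19 of 35 interferon-stimulated effectors, 6 of 13 chemokine and adhesion genes and 5 of 21 NF-kB genes were higher, and many of the largest differences were among them. Smaller differences were found for 5 of 26 cholesterol genes, which were higher, and for 3 of 24 immediate-early genes and 4 of 29 genes of the ATF4 amino acid response, which were lower. Of 15207 genes tested, 153 (1.01%) had an adjusted p below 0.05, 82 of them higher (0.539%) and 71 lower (0.467%). Among the calls, 32 of 82 higher genes exceeded 2-fold, with a median size of 0.78 on the log2 scale. Of 71 lower genes 5 exceeded 2-fold, with a median size of 0.41. The higher genes had lower levels, with a median of 9.37 CPM over all libraries of the series, against 20.3 CPM for the lower genes. A gene with few reads needs a larger difference to pass, so these sizes are not directly comparable. In 75 of 82 higher genes mSOD1 was above wtSOD1 in all 6 pairs (496 of all genes tested, 3.26%), and in 67 of 71 lower genes it was below in all 6 (588 of all tested, 3.87%). All 6 mSOD1 libraries lay above all 6 wtSOD1 libraries in 50 of the 82 higher genes (80 genes of all tested did so, 0.526%), and below in 30 of the 71 lower genes (46 of all tested, 0.302%). In a culture of mixed cells, a higher level may mean more cells of a kind or more RNA per cell, and the counts cannot tell these apart.

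With the experiment number as a block within each day, 577 genes passed (3.79%), 261 higher (1.72%) and 316 lower (2.08%), and they included 151 of the 153. Without wtSOD1 replicate 4, 84 genes passed (0.55%), 57 higher (0.373%) and 27 lower (0.177%). With both changes 312 passed (2.04%), 155 higher and 157 lower. The count without mSOD1 replicate 2 was 87 and without mSOD1 replicate 4 it was 100, and it lay between 104 and 166 without any other single library. The plot of list members shows how the differences fall by gene group.

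**Figure D1:**
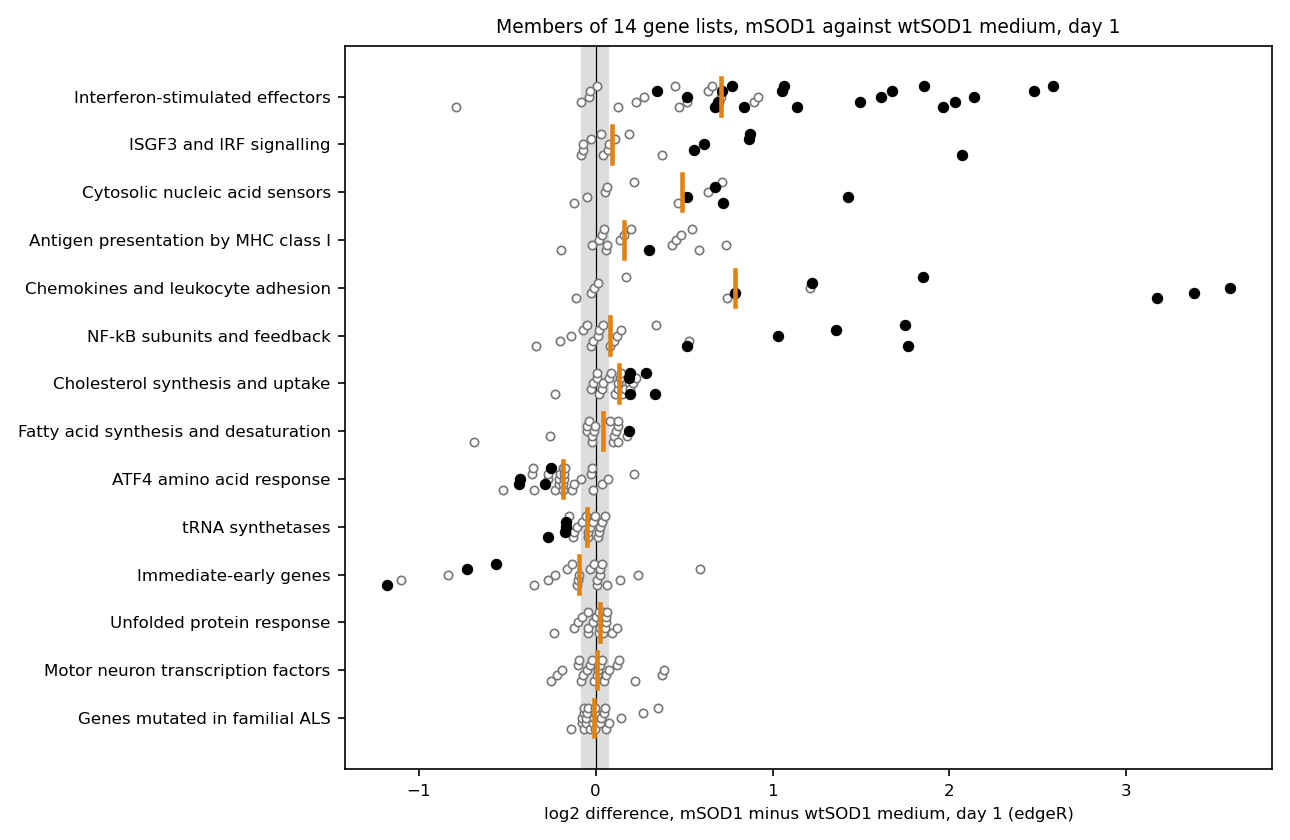
Log2 differences, mSOD1 minus wtSOD1 medium on day 1, of the tested members of 14 gene lists; each circle is a gene, filled where the adjusted p is below 0.05, orange bars are list medians and the grey band is the interquartile range of all 15207 genes. The interferon-stimulated effectors have their median at 0.71 and the chemokine and adhesion list at 0.79, whereas the medians of the motor neuron transcription factors and the familial ALS genes lie at 0.01 and -0.01.

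Among the interferon-stimulated effectors, the genes whose products block viruses, 19 of 35 tested members were higher in mSOD1 medium and none was lower. Their median log2 difference was 0.71, against 0.0008 over all genes tested. Usp18, a protease that restrains interferon signalling, stood at 11.5, 17.3 and 20.6 CPM in mSOD1 medium (lowest, median and highest of 6 libraries), against 3.35, 3.82 and 4.48 CPM in wtSOD1 medium. No library of one medium reached the other, and the difference of 2.14 ± 0.20 had the lowest p of all genes (adjusted p = 6.48e-09). Oasl2, an antiviral relative of the oligoadenylate synthetases, stood at 12.5, 23.4 and 24 CPM in mSOD1 medium, against 4.55, 5.36 and 6.55 CPM in wtSOD1 medium. The media did not overlap, and the difference was 1.97 ± 0.21 (adjusted p = 2.95e-07). Rtp4, an interferon-induced chaperone of receptors, stood at 4.03, 5.49 and 6.44 CPM in mSOD1 medium, against 0.326, 1 and 1.66 CPM in wtSOD1 medium, again without overlap (2.59 ± 0.37, adjusted p = 2.78e-05).

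Further effectors differed by 0.72 to 2.48 on the log2 scale. Ifit1, which binds viral RNA that lacks a host cap, stood at 0.949, 1.67 and 3.33 CPM in mSOD1 medium, against 0.0761, 0.353 and 0.437 CPM in wtSOD1 medium (2.48 ± 0.38, adjusted p = 6.66e-05). Isg15, a ubiquitin-like protein that Usp18 removes from its targets, stood at 1.37, 1.55 and 1.86 CPM in mSOD1 medium, against 0.228, 0.642 and 0.682 CPM in wtSOD1 medium (1.49 ± 0.29, adjusted p = 0.00277). Neither gene overlapped between the media. Oas1b, of the family that makes the activator of RNase L, differed by 1.68 ± 0.26 (adjusted p = 7.62e-05) and the apoptosis-linked Xaf1 by 1.06 ± 0.17 (1.05e-04). The membrane protein Ifitm3, which hinders viral entry, differed by 0.72 ± 0.11 (6.33e-05) and the tether of budding virus Bst2 by 0.77 ± 0.16 (0.0075). Of the interferon-induced GTPases, Irgm1 was higher by 1.14 ± 0.20 (7.84e-04) and Irgm2 by 1.05 ± 0.25 (0.0264). The list was not uniform: the RNA editing enzyme Adar (log2 difference -0.03 ± 0.05, adjusted p = 0.896), Herc6 (-0.08 ± 0.10, 0.839) and Ifit2 (-0.04 ± 0.15, 0.963) were near 0 and did not pass.

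Some factors that carry the interferon signal were higher as well. Of 16 members of the ISGF3 and IRF list, 5 passed, all higher, with a list median of 0.09. Irf9, the DNA-binding subunit of ISGF3, stood at 36.5, 39.8 and 47.5 CPM in mSOD1 medium, against 23.4, 26.2 and 28.9 CPM in wtSOD1 medium. Every mSOD1 library lay above every wtSOD1 library (0.61 ± 0.07, adjusted p = 3.73e-07). Stat2, another subunit, stood at 30.8, 44.3 and 47.6 CPM in mSOD1 medium, against 27, 28.5 and 30.7 CPM in wtSOD1 medium, without overlap (0.56 ± 0.09, adjusted p = 7.33e-05). Irf7, the factor that amplifies interferon production, differed by 2.07 ± 0.32 (8.40e-05) from low levels, and Irf1 by 0.87 ± 0.12 (2.78e-05). Of 12 cytosolic sensors of RNA and DNA, 4 were higher, with a list median of 0.49. Ddx58 (RIG-I), which detects viral RNA, stood at 14.1, 15.9 and 17.6 CPM in mSOD1 medium, against 6.98, 9.34 and 12 CPM in wtSOD1 medium (0.72 ± 0.11, adjusted p = 2.89e-05). The kinase Eif2ak2 (PKR), which halts translation on double-stranded RNA, differed by 0.52 ± 0.11 (0.00658), and Trim25, which ubiquitinates RIG-I, by 0.67 ± 0.10 (2.78e-05). Trim25 overlapped in its lowest mSOD1 and highest wtSOD1 value, as did Eif2ak2, and both stand in the effector list as well as the sensor list. Ifi202b, of the DNA-binding HIN-200 family, differed by 1.43 ± 0.34 (0.0225). Outside these lists the helicase Ddx60 (1.41 ± 0.31, 0.011) and Trim21, an intracellular antibody receptor (1.09 ± 0.18, 2.46e-04), were higher too.

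Of 17 genes of antigen presentation by MHC class I, 1 passed, the peptide transporter Tap1 (0.30 ± 0.08, adjusted p = 0.0403), with a list median of 0.16. It kept its call in 2 of the 12 fits that leave out 1 library. Of the 23 interferon genes described that passed, 19 kept their call without each single library. Ddx60 lost it without mSOD1 replicate 2 (adjusted p = 0.051), Ifi202b without any of 4 libraries (up to 0.142), Irgm2 without any of 6 (up to 0.155). Without wtSOD1 replicate 4, 17 effectors, 5 factors, 3 sensors and no antigen presentation gene passed. Those that passed were all higher, where 0.373% of all genes were higher. Under the block with all libraries, 24 effectors passed, all higher, where 1.72% of all genes were higher. Reads of Irf9 may be counted with Rnf31, of Irf7 with Phrf1, of Rtp4 with Masp1, of Tap1 with Psmb9 and of Irgm2 with Igtp, since these genes overlap in the annotation and the sources used here do not give the strandedness of the counts. The Oas1, Gbp, Irgm and Ifi202 families have close paralogs, so reads may be split among their members.

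**Figure D2:**
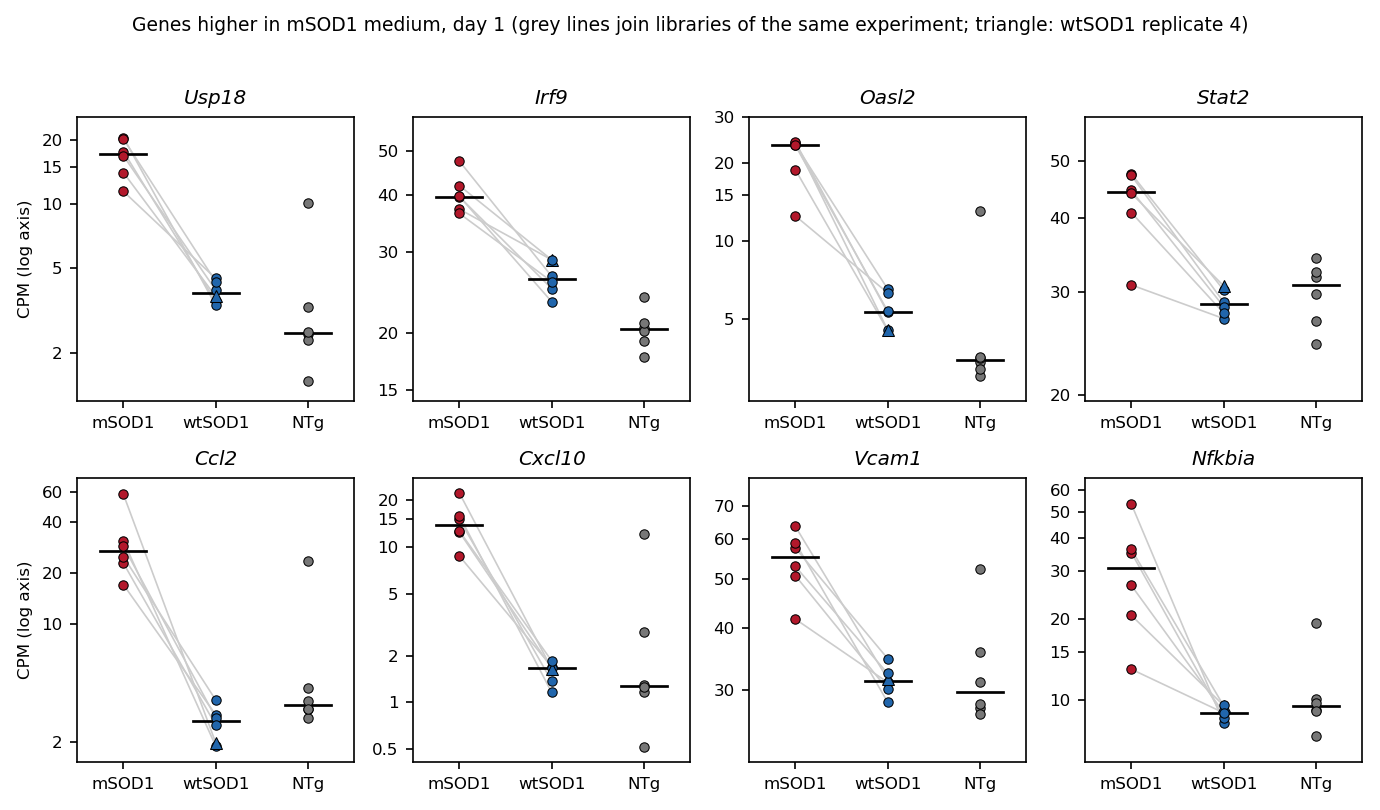
CPM (log axis) in each of 6 libraries per medium on day 1 for 4 interferon genes (top) and for Ccl2, Cxcl10, Vcam1 and Nfkbia (bottom), mSOD1 at left, wtSOD1 in the middle and NTg at right; bars are medians, grey lines join libraries of the same experiment and the triangle is wtSOD1 replicate 4. In all 8 genes every mSOD1 library lies above every wtSOD1 library, and the highest NTg value in each of them belongs to replicate 6 (23.6 CPM for Ccl2).

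RefSeq promoter windows (GRCm38.p6, 250 bases before to 50 after the annotated start) were matched by gene identifier for 61 of the 82 higher genes, 54 of the 71 lower genes and 11737 of all genes tested. The letters GAAA, then any 2 bases, then GAAA, the core of an interferon-stimulated response element (ISRE), were found on either strand in 20 of 61 higher genes (32.8%), 2 of 54 lower genes (3.7%) and 425 of 11737 genes tested (3.62%). Of the 27 effectors with a window, 17 held them (63%). The windows of Isg15 (chr4:156200869-156200918, minus strand) and Ifit1 (chr19:34640769-34640828, plus strand) are shown, both genes without overlap between the media, because they carry several copies close together. Capitals mark the matches, which overlap one another in Isg15 and lie on the opposite strand in Ifit1.
Isg15: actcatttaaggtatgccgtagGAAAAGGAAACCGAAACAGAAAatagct
Ifit1: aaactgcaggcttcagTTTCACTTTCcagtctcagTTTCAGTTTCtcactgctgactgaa
Isg15 has 3 such matches and Ifit1 has 2, all upstream of the start. A match is a description of the letters and was not tested as a binding site.

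The chemokines Ccl2, Cxcl1 and Cxcl10 had the largest differences of the 82. Of 13 tested members of the chemokine and leukocyte adhesion list, 6 were higher in mSOD1 medium and none was lower, with a median of 0.79. Ccl2, which draws monocytes, stood at 17.1, 26.9 and 58.5 CPM in mSOD1 medium, against 1.9, 2.67 and 3.56 CPM in wtSOD1 medium. The media were far apart, by 3.58 ± 0.34 on the log2 scale or 12-fold (adjusted p = 4.14e-08). Cxcl10, an interferon-induced chemokine that draws T cells, stood at 8.71, 13.8 and 22.1 CPM in mSOD1 medium, against 1.16, 1.66 and 1.85 CPM in wtSOD1 medium (3.17 ± 0.39, 9.02-fold, adjusted p = 2.96e-06). Art3 moved with it (2.96 ± 0.35, adjusted p = 1.91e-06). The 2 genes overlap on opposite strands and the strandedness of the counts is not known, so reads of one may be counted with the other. Cxcl1, which draws neutrophils, stood at 1.12, 2.3 and 3.9 CPM in mSOD1 medium, against 0.0486, 0.19 and 0.38 CPM in wtSOD1 medium (3.38 ± 0.41, adjusted p = 1.39e-06). None of these genes overlapped between the media.

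Ccl7, a relative of Ccl2, differed by 1.85 ± 0.38 (adjusted p = 0.00496) at levels of 0.517 to 2.44 CPM in mSOD1 medium, against 0.0971 to 0.712 CPM in wtSOD1 medium. Vcam1, which holds leukocytes to vessel walls, stood at 41.6, 55.3 and 63.7 CPM in mSOD1 medium, against 28.4, 31.3 and 34.7 CPM in wtSOD1 medium (0.79 ± 0.10, adjusted p = 2.96e-06). Icam1, another adhesion molecule, differed by 1.22 ± 0.26 (0.00647). In the same list Cxcl12 was at 14.2 to 21.1 CPM in mSOD1 medium and 14.9 to 22.8 CPM in wtSOD1 medium (-0.11 ± 0.10, adjusted p = 0.76) and did not pass. Csf1, the growth factor of macrophages and microglia, stood at 95.7, 109 and 129 CPM in mSOD1 medium, against 67.9, 73.8 and 87.9 CPM in wtSOD1 medium, without overlap (0.55 ± 0.08, adjusted p = 1.85e-05). All 8 of these genes that passed, Art3 and Csf1 included, kept their call without each single library.

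Of 21 NF-kB subunits and feedback genes, 5 were higher and none was lower, with a list median of 0.08. Nfkbia, the inhibitor that NF-kB itself induces, stood at 13, 30.9 and 53.3 CPM in mSOD1 medium, against 8.22, 8.97 and 9.54 CPM in wtSOD1 medium. The media did not overlap, though the mSOD1 libraries spread over a wide range (1.76 ± 0.20, 3.39-fold, adjusted p = 3.74e-07). Tnfaip3 (A20), an enzyme that ends NF-kB signalling, stood at 16.1, 26.8 and 42.8 CPM in mSOD1 medium, against 10.3, 13.1 and 16.2 CPM in wtSOD1 medium, and overlapped in its lowest mSOD1 value (1.03 ± 0.19, adjusted p = 0.00127). The inhibitor of apoptosis Birc3 differed by 1.36 ± 0.24 (6.07e-04), Tnfaip2 by 1.75 ± 0.34 (0.00276) and the subunit precursor Nfkb2 by 0.52 ± 0.08 (1.44e-04). The subunits Rela (0.04, adjusted p = 0.854) and Nfkb1 (0.12, adjusted p = 0.575) did not pass. Outside the list, the small GTPase Rnd1 (1.10 ± 0.14, 2.02e-06) and Rgs16, which shortens G protein signals (0.59 ± 0.09, 2.78e-05), were higher without overlap. These 7 genes that passed kept their call without each single library.

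The letters GGGA, then any 4 bases, then CC, the core of a kB element, stood in 25 of 61 higher genes (41%), 17 of 54 lower genes (31.5%) and 3498 of 11737 genes tested (29.8%). Of 17 NF-kB genes with a window, 10 held them (58.8%). The stretches of Cxcl10 (chr5:92348975-92349109, minus strand), which joins an ISRE to a pair of kB matches, of Cxcl1 (chr5:90891140-90891194, plus strand) and of Nfkbia (chr12:55492648-55492697, minus strand) are shown because these genes had among the largest differences. Capitals mark ISRE and kB matches on either strand, and in Cxcl1 neighbouring matches overlap.
Cxcl10: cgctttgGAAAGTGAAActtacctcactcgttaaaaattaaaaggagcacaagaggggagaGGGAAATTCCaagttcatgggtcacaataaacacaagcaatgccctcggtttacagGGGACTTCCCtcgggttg
Cxcl1: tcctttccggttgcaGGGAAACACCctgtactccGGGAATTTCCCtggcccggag
Nfkbia: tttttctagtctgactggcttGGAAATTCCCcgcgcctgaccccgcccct
The ISRE letters of Cxcl10 are the first capitals of its line.

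Markers of cells that could supply such transcripts were read in the same libraries. The summed level of 6 microglia and macrophage markers was 4.47 to 6.81 CPM in mSOD1 medium and 4.09 to 7.33 CPM in wtSOD1 medium. Among them Cx3cr1 was at 0 in 5 of 6 mSOD1 and 4 of 6 wtSOD1 libraries, and Aif1 was at 0 to 0.508 CPM in mSOD1 medium and 0 to 0.616 CPM in wtSOD1 medium. Gfap was at 0 in 4 of 6 libraries of either medium, and 6 astrocyte markers summed to 90.2 to 141 CPM in mSOD1 medium and 90.6 to 125 CPM in wtSOD1 medium. Mesenchyme markers (6 genes) summed to 514 to 777 CPM in mSOD1 medium and 431 to 706 CPM in wtSOD1 medium, and 4 endothelial markers to 8.97 to 13.9 CPM in mSOD1 medium and 9.59 to 11.9 CPM in wtSOD1 medium. All these ranges overlap. In edgeR no tested member of the 11 marker lists passed. Some had too few reads to be tested, so 3 of 6 microglia and macrophage markers and 1 of 4 pluripotent cell markers were tested. With the replicate block 1 pan-neuronal marker was higher, where 1.72% of all genes were. A part of other cell types in the higher levels was not tested further.

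Of 26 genes of cholesterol synthesis and uptake, 5 passed, and these were higher in mSOD1 medium by small amounts. The list median was 0.13, and 23 of the 26 estimates were above 0, against 7652 of 15207 over all genes. Sqle, which oxidises squalene, stood at 182, 197 and 208 CPM in mSOD1 medium, against 162, 171 and 179 CPM in wtSOD1 medium. The media did not overlap and differed by 0.19 ± 0.04, or 1.14-fold (adjusted p = 0.0127). Nsdhl, which acts later in the same path, stood at 44.7, 47.6 and 52.3 CPM in mSOD1 medium, against 36.4, 38.5 and 44.2 CPM in wtSOD1 medium (0.28 ± 0.06, adjusted p = 0.00524). Its values did not overlap between the media either. Fdps, which joins isoprene units, differed by 0.34 ± 0.08 (0.037) and Sc5d by 0.20 ± 0.05 (0.0319).

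Of 18 genes of fatty acid synthesis, 9 estimates were above 0 and 9 below, and the desaturase Scd2 passed, at 1190, 1250 and 1290 CPM in mSOD1 medium, against 1040, 1080 and 1160 CPM in wtSOD1 medium, without overlap (0.19 ± 0.04, adjusted p = 0.0128). The related Fads3 (0.26 ± 0.06, 0.014) and Idh1, which supplies NADPH (0.18 ± 0.04, 0.0254), were also higher. Insig1, which holds back the regulator of these genes, did not differ beyond its spread (0.04 ± 0.04, adjusted p = 0.805). These calls depended on the libraries used. Only Nsdhl of the sterol genes passed without wtSOD1 replicate 4 (adjusted p = 0.0219), while Sqle was then at 0.0545, Fdps at 0.204 and Sc5d at 0.147, with differences of 0.18, 0.26 and 0.17. Sqle also lost its call without mSOD1 replicate 2 (0.0562), Scd2 without mSOD1 replicate 2 or 4 (up to 0.0535), and Idh1 without any of 4 libraries (up to 0.0872). Fdps and Sc5d kept theirs in 4 of 12 such fits each (up to 0.204 and 0.147). Under the replicate block 11 of the 26 cholesterol genes and 4 of the 18 fatty acid genes passed, all higher, where 1.72% of all genes were higher. With the block but without wtSOD1 replicate 4, 7 and 3 did so (1.01% of all genes).

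Of 24 immediate-early genes, which neurons switch on with activity, 3 passed, all lower in mSOD1 medium, and the list median was -0.10. Npas4, an activity-dependent transcription factor of neurons, stood at 4.66, 7.57 and 10.5 CPM in mSOD1 medium, against 11.7, 17.1 and 23.7 CPM in wtSOD1 medium. No library overlapped, and it was lower by 1.18 ± 0.17, at 0.443 of the wtSOD1 level (adjusted p = 2.78e-05). Fos stood at 36, 41.1 and 49.5 CPM in mSOD1 medium, against 50.7, 71 and 86.8 CPM in wtSOD1 medium (-0.73 ± 0.10, adjusted p = 1.24e-05). Nr4a1, an orphan nuclear receptor of the same early wave, stood at 11.7, 16.3 and 20.3 CPM in mSOD1 medium, against 18.6, 23.6 and 28.7 CPM in wtSOD1 medium, with overlap (-0.56 ± 0.12, adjusted p = 0.0123). Of the 24 estimates 9 were above 0 and 15 below. Others of the list did not pass: Egr1 was at 23.4 to 55.2 CPM in mSOD1 medium and 18.4 to 47 CPM in wtSOD1 medium (0.03 ± 0.18, adjusted p = 0.979), and Arc stood at 0.24 ± 0.20 (0.727).

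Outside that list, 9 more of the 71 lower genes are described, picked from the calls by their values, and they stand for no fixed group. Rem2 and Gem, a pair of small GTPases that restrain calcium channels, differed by -0.66 ± 0.13 (adjusted p = 0.00507) and -0.94 ± 0.22 (0.0204). Rem2 stood at 13.5, 18.9 and 23.7 CPM in mSOD1 medium, against 22.1, 29.6 and 39.9 CPM in wtSOD1 medium, overlapping slightly. Nptx1, a secreted pentraxin of synapses, differed by -0.70 ± 0.17 (0.0304) and Gpr3, a receptor that raises cyclic AMP, by -0.67 ± 0.17 (0.0382). The clock gene Per1 differed by -0.31 ± 0.07 (0.0245), the kinase Sik3 by -0.28 ± 0.06 (0.00919), the factor Mef2c by -0.59 ± 0.14 (0.0281) and Hdac9, which represses MEF2 factors, by -0.41 ± 0.09 (0.00688). The microRNA gene Mir132, a CREB target counted here as a gene and not as the mature form, differed by -0.32 ± 0.08 (0.0281).

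Of these 12 genes, 3 of the list and 9 outside it, Npas4, Fos, Rem2 and Hdac9 kept their call without each single library. Without wtSOD1 replicate 4, Nr4a1 was at adjusted p = 0.0703, Gem at 0.118, Nptx1 at 0.204, Gpr3 at 0.134, Per1 at 0.156, Sik3 at 0.0609, Mir132 at 0.0855 and Mef2c at 0.222, all still lower. Of these 8 all but Sik3 also lost their call without at least 1 other library. With the replicate block and without replicate 4 all 8 passed, at adjusted p of 2.14e-05 for Nr4a1 to 0.0134 for Mef2c.

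**Figure D3:**
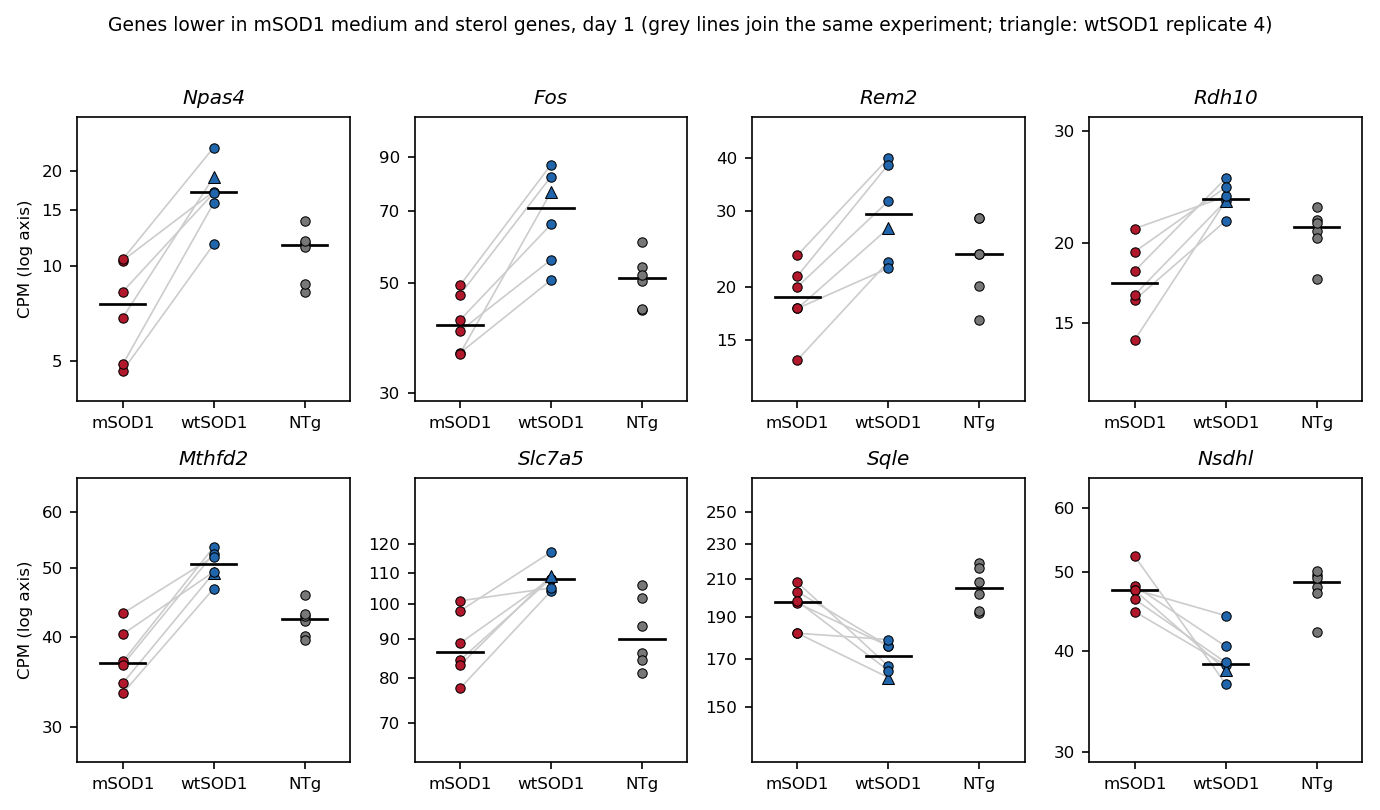
CPM (log axis) in each of 6 libraries per medium on day 1 for Npas4, Fos, Rem2 and Rdh10 (top) and for Mthfd2, Slc7a5, Sqle and Nsdhl (bottom), mSOD1 at left, wtSOD1 in the middle and NTg at right; bars are medians, grey lines join libraries of the same experiment and the triangle is wtSOD1 replicate 4. The NTg medians of Npas4, Fos and Mthfd2 (11.7, 51.1 and 42.4 CPM) lie between those of the other media, whereas NTg medians of Sqle and Nsdhl (205 and 48.6 CPM) lie above the mSOD1 medians.

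The letters TGACGT, a core of the element bound by CREB, were found in 14 of 54 lower genes with a window (25.9%), 6 of 61 higher genes (9.84%) and 1472 of 11737 genes tested (12.5%). The stretches of Npas4 (chr19:4990122-4990166, minus strand) and Fos (chr12:85473805-85473849, plus strand) are shown because they are among the 3 immediate-early genes that passed. Capitals mark the matches on either strand.
Npas4: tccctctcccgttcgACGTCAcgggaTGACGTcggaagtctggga
Fos: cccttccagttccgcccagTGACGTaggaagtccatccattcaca
Npas4 holds 2 matches on opposite strands and Fos holds 1 in the stretch printed.

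Of 29 genes of the ATF4 amino acid response, 4 passed, all lower in mSOD1 medium, and the list median was -0.19, with 26 of 29 estimates below 0 (7555 of 15207 over all genes). Mthfd2, a mitochondrial folate enzyme, stood at 33.4, 36.8 and 43.2 CPM in mSOD1 medium, against 46.8, 50.7 and 53.5 CPM in wtSOD1 medium. The media did not overlap (-0.43 ± 0.06, or 0.745-fold, adjusted p = 3.27e-05). Slc7a5, a carrier of large neutral amino acids, stood at 77.6, 86.7 and 101 CPM in mSOD1 medium, against 104, 108 and 117 CPM in wtSOD1 medium (-0.28 ± 0.06, adjusted p = 0.013). The arginine and lysine carrier Slc7a1 differed by -0.25 ± 0.06 (0.0214) and the glycine carrier Slc6a9 by -0.43 ± 0.10 (0.0204). Outside the list, Slc43a2, another carrier of large neutral amino acids, was lower by 0.26 ± 0.07 (0.0367).

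Of 20 tRNA synthetases, which charge tRNAs with amino acids, Eprs, Iars, Aars and Cars passed, all lower, and the list median was -0.05. Eprs stood at 224, 234 and 244 CPM in mSOD1 medium, against 243, 262 and 279 CPM in wtSOD1 medium (-0.17 ± 0.03, adjusted p = 0.0054), overlapping slightly. Iars (-0.17 ± 0.04, 0.0214), Aars (-0.17 ± 0.04, 0.0435) and Cars (-0.27 ± 0.06, 0.0204) were lower too. Atf4 itself (-0.21 ± 0.06, adjusted p = 0.134) and the serine synthesis enzyme Psat1 (-0.27 ± 0.09, 0.165) did not pass, but did with the replicate block (5.49e-05 and 3.46e-07). With the block 12 of the 29 ATF4 genes and 7 of the 20 synthetases passed, all lower, where 2.08% of all genes were lower. Without wtSOD1 replicate 4, 3 and 2 passed (0.177% of all genes were lower), and 11 and 7 with the block as well (1.03%). Of the 9 genes described that passed, Slc43a2 from outside the lists included, Mthfd2 and Eprs kept their call without each single library. Slc7a5 lost it without mSOD1 replicate 3 (0.05), Slc6a9 without mSOD1 replicate 1 or 2 (up to 0.0746), Slc7a1 without any of 4 libraries (up to 0.077), Iars and Cars without any of 3 each (up to 0.0761 and 0.0688), and Aars and Slc43a2 kept it in 3 of 12 such fits each (up to 0.116 and 0.142).

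The letters TGATGNAA, the core of the element bound by ATF4 with its partners, stood in 7 of 54 lower genes with a window (13%), 6 of 61 higher genes (9.84%) and 333 of 11737 genes tested (2.84%). Of 25 ATF4 genes with a window 8 held them (32%), as did 5 of 13 synthetases (38.5%). The stretch of Aars (chr8:111033712-111033756, plus strand) is shown as an example, with the match on the opposite strand in capitals.
Aars: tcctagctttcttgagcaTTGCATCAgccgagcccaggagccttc
Aars overlaps Exosc6 and Slc6a9 overlaps B4galt2 and Ccdc24 in the annotation, so some of their reads may belong to these neighbours.

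Other genes lower in mSOD1 than in wtSOD1 medium include channels and developmental signals. Kcnq3, a subunit of the M-current channel that damps firing, stood at 8.46, 9.81 and 15.3 CPM in mSOD1 medium, against 12.9, 16.9 and 25.6 CPM in wtSOD1 medium, with overlap (-0.77 ± 0.17, adjusted p = 0.0141). Fgf3, a secreted growth factor, stood at 0.862, 2.2 and 3.49 CPM in mSOD1 medium, against 3.84, 4.27 and 5.09 CPM in wtSOD1 medium, without overlap (-0.97 ± 0.20, 0.00673). Rdh10, which makes retinal on the way to retinoic acid, stood at 14.1, 17.4 and 21.1 CPM in mSOD1 medium, against 21.7, 23.5 and 25.3 CPM in wtSOD1 medium, also without overlap (-0.42 ± 0.08, 0.00127). Of 14 retinoic acid genes tested it was the 1 that passed. Sfrp2, a secreted WNT inhibitor, was lower by 0.45 ± 0.09 (0.00226). The inward rectifier subunit Kcnj9 (-0.86 ± 0.22, 0.0376), the chloride channel Ano1 (-0.77 ± 0.20, 0.0465) and the kinase Lrrk2 (-0.38 ± 0.10, 0.0375) passed only narrowly, and each kept its call in 4 of 12 fits that leave out 1 library. Kcnq3 lost its call without mSOD1 replicate 2 or wtSOD1 replicate 4 (up to 0.116). Fgf3, Sfrp2 and Rdh10 kept theirs without each library.

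Of 24 p53 targets, the cell cycle inhibitor Cdkn1a (p21) passed, at 92.5, 103 and 109 CPM in mSOD1 medium, against 71.9, 86.2 and 92.9 CPM in wtSOD1 medium (0.27 ± 0.07, adjusted p = 0.0304). It kept its call in 5 of 12 fits that leave out 1 library (up to 0.161), and with the block 5 p53 targets were higher and 1 was lower (1.72% and 2.08% of all genes). Without wtSOD1 replicate 4 no p53 target passed.

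Many groups tied to motor neurons and to ALS had no member past the threshold. In edgeR and in DESeq2 this held for 23 motor neuron transcription factors (list median 0.01), 11 cholinergic genes (-0.05), 14 neurofilament and cytoskeleton genes (0.03), 19 trophic factor receptors (-0.01) and 25 genes mutated in familial ALS (-0.01). Of these lists 3, 1, 0, 3 and 1 members had an unadjusted p below 0.05 in edgeR, as did 1695 of all 15207 genes tested. It held as well for 22 genes of the unfolded protein response (0.02), 23 NRF2 targets (-0.03), 20 chaperones (-0.02), 25 proteasome subunits (0.01) and 18 gp130 receptor and STAT3 feedback genes (-0.02), of which 2, 6, 2, 0 and 1 had an unadjusted p below 0.05. Over all genes 1.01% passed in edgeR, so lists of these sizes would often hold no call whatever their genes. With the replicate block 2 motor neuron factors, 1 cholinergic gene, 1 cytoskeletal gene, 2 trophic receptors and no ALS gene passed, against 3.79% of all genes. In the second set of lists the block gave 1 gene of the unfolded protein response (lower), 2 NRF2 targets (lower), 2 gp130 and STAT3 genes (1 higher, 1 lower), and no chaperone or proteasome gene. Mnx1 stood at 0.01 ± 0.12 (adjusted p = 0.989), Isl1 at -0.01 ± 0.10 (0.988) and Chat, whose reads may include those of Slc18a3 inside it, at -0.05 ± 0.10 (0.913). Mki67, made by cycling cells, was at -0.10 ± 0.11 (0.818) and Col1a1, a collagen of mesenchyme, at -0.11 ± 0.18 (0.891). These values did not differ beyond their error at this depth.

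Leaving out wtSOD1 replicate 4 removed 75 calls, 30 of genes that were higher and 45 of genes that were lower, and 78 calls were shared. All 75 kept their sign, 74 kept an unadjusted p below 0.05, and 55 of them passed without this library once the replicate block was used. The 75 had been called on libraries that both fits share, so this is no separate check of them. Of the 75 estimates 2 moved by more than 1.5-fold. This count says little, because a difference under 1.5-fold could vanish without being counted. Such small differences were those of 29 of the 82 higher and 52 of the 71 lower genes. Olfr56, an olfactory receptor gene with no read in wtSOD1 replicate 4, stood at 2.81 with it and at 2.00 without it. The other was Tmem30c, a relative of flippase subunits, which stood at 95.3 CPM in wtSOD1 replicate 4, against 0.116 to 1.14 CPM in mSOD1 medium and 0.304 to 0.922 CPM in the other 5 wtSOD1 libraries. Its difference of -4.97 ± 1.11 (adjusted p = 0.0184, lower in 4 of 6 pairs) became -0.13 (0.995) without that library. Among named genes that passed only with it, the difference of Sycp2 was -0.61 with it and -0.45 without it. Replicate 4 held the highest wtSOD1 level of Sycp2, 9.95 CPM. The differences of Sik3 (-0.28 and -0.24), Pgpep1 (0.32 and 0.27) and 9530053A07Rik (0.81 and 0.72) were also smaller without replicate 4.

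A further 6 genes passed only without replicate 4. Samd9l, an antiviral factor, stood at 2.51 to 6.33 CPM in mSOD1 medium, while wtSOD1 replicate 4 held the highest wtSOD1 level, 5.02 CPM (0.92 ± 0.25, adjusted p = 0.0721 with all libraries, 1.54 and 3.83e-05 without it). Gbp9, an interferon-induced GTPase that overlaps Gbp4 and Gbp8, was likewise at its highest wtSOD1 level there, 5.03 CPM (0.51, 0.345 with it, 0.85, 0.041 without it). The receptor of oncostatin M, Osmr, passed as lower without that library (-0.28, 0.041), and stood at -0.23 ± 0.07 (0.108) with it. Cntn2, a neuronal adhesion protein (0.25, 0.154 with it, 0.33, 0.0258 without it), and Parp3, of the ADP-ribosylating enzymes (0.51, 0.0978 with it, 0.65, 0.0418 without it), followed the same course, as did Mir684-2. With the block and all libraries Samd9l (3.54e-04), Gbp9 (0.00841), Osmr (0.00918), Cntn2 (0.0163) and Parp3 (0.0044) passed as well. The plot of both sets of differences shows how far each estimate moved.

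**Figure D4:**
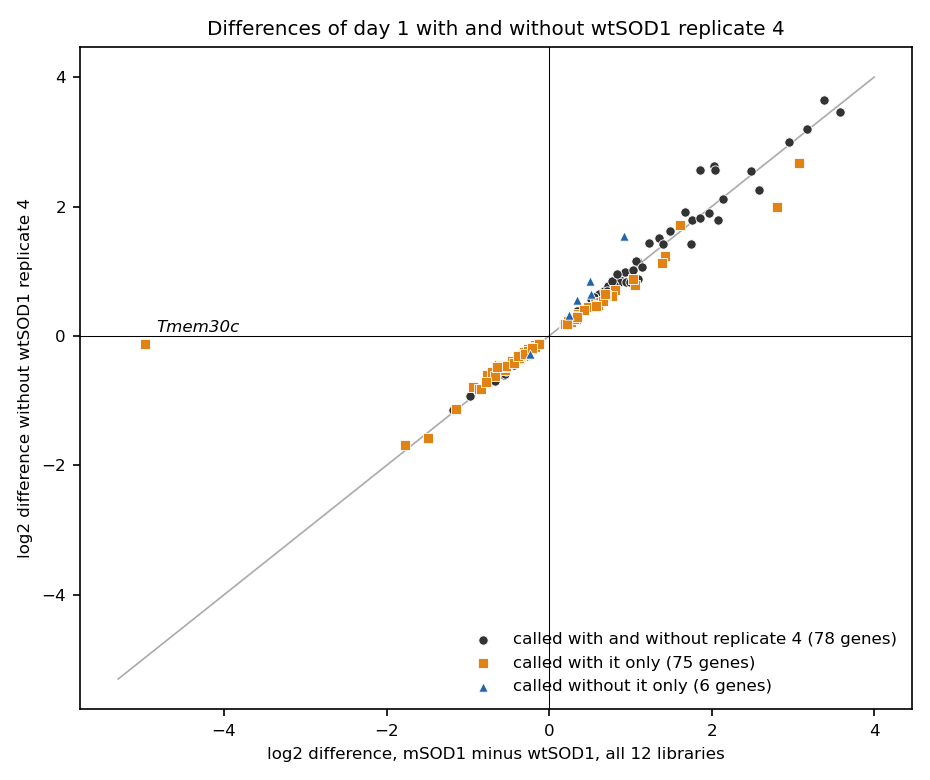
Log2 differences, mSOD1 minus wtSOD1 medium on day 1, with all 12 libraries (horizontal axis) and without wtSOD1 replicate 4 (vertical axis) for genes past the threshold in either; the grey line marks equal values. The 78 genes called both ways, the 75 called with it only and the 6 called without it only are drawn as separate symbols, and Tmem30c lies farthest from the line, at -4.97 and -0.13.

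The NTg medium of the same day gave a further level. Ccl2, Usp18 and Vcam1 were higher in mSOD1 medium than in either other medium, while Tnfaip2 (adjusted p = 0.522), Ifi202b (0.0756) and Icam1 (0.0528) did not pass against NTg. Without NTg replicate 6, described next, Tnfaip2 (0.0149) and Icam1 (1.85e-04) passed and Ifi202b did not (0.0799). The comparisons with NTg share the mSOD1 or the wtSOD1 libraries with the one above. Of the 82 genes higher against wtSOD1, 49 passed against NTg as well (0.421% over all genes), while 3 (Irf9, Sqle and Scd2) passed between wtSOD1 and NTg medium (0.0263% over all genes, 0.0197% as lower). Ccl2 had NTg levels of 2.77, 3.33 and 23.6 CPM (lowest, median and highest), Cxcl10 of 0.515, 1.27 and 12 CPM, and Usp18 of 1.48, 2.49 and 10.1 CPM. In each of them the highest value is that of NTg replicate 6, the smallest library of the day with 4.39 M reads. Markers of some other cells were high in it too. The 6 microglia and macrophage markers summed to 39.8 CPM, against 3.32 to 7.18 CPM in the other NTg libraries. The 6 oligodendrocyte lineage markers summed to 199 CPM, against 51.6 to 56.7 CPM. Csf1r, the receptor of Csf1, stood at 16.5 CPM there, against 0.0922 to 2.39 CPM. Gfap stood at 1.18 CPM, against 0 to 0.0922 CPM. The 6 astrocyte markers as a sum were not high there, at 124 CPM against 91.6 to 131 CPM in the other NTg libraries. Without that library 52 of the 82 passed between mSOD1 and NTg medium (0.543% of all genes) and 4 between wtSOD1 and NTg medium (0.0458%). Against NTg the difference of Ccl2 was 2.58 ± 0.33 for mSOD1 (adjusted p = 7.55e-06), and for wtSOD1 it did not pass (0.694). Without NTg replicate 6 it was 3.17 ± 0.22 for mSOD1 (4.82e-13). Irf9 was higher in both media: 1.00 ± 0.07 for mSOD1 (2.67e-12) and 0.39 ± 0.07 for wtSOD1 (0.023).

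The 71 genes lower against wtSOD1 had median differences from NTg of -0.17 for mSOD1 and 0.22 for wtSOD1, and none of them passed in either comparison with NTg. Without NTg replicate 6, 2 passed for mSOD1. Npas4 stood at -0.50 ± 0.17 for mSOD1 against NTg (adjusted p = 0.468) and at 0.68 ± 0.16 for wtSOD1 against NTg (0.178). Fos stood at -0.27 ± 0.10 (0.538) and 0.45 ± 0.10 (0.0901), and Mthfd2 at -0.17 ± 0.06 (0.546) and 0.26 ± 0.06 (0.178). For Sqle the value was -0.07 ± 0.04 for mSOD1 (0.808) and -0.26 ± 0.04 for wtSOD1 (0.00213). Median levels of Sqle were 197 CPM in mSOD1, 171 CPM in wtSOD1 and 205 CPM in NTg medium, so that wtSOD1 medium had the lowest.

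Of the 82 genes higher on day 1, which were chosen by their day 1 values, 8 passed between mSOD1 and wtSOD1 medium on day 3, when 516 genes did so in all (3.39%), and their median difference was 0.14, against 0.78 on day 1. The difference between the days was itself tested: 90 genes had an adjusted p below 0.05 (0.592%), 16 of them among the 82 and 11 among the 71. With the replicate block 1649 genes passed that test, and without wtSOD1 replicate 4 (no block) 31 did. Usp18 differed by 2.14 on day 1 and by -0.04 ± 0.23 on day 3 (day 1 minus day 3, 2.17 ± 0.30, adjusted p = 3.76e-05). Ccl2 followed, with 0.44 ± 0.34 on day 3 (3.15 ± 0.48, 4.01e-04), as did Nfkbia with 0.29 ± 0.20 (1.47 ± 0.28, 0.0084), Irf1 with -0.10 ± 0.12 (0.97 ± 0.17, 0.00193) and Csf1 with 0.00 ± 0.07 (0.55 ± 0.11, 0.0084). Vcam1 was an exception that still passed on day 3 (0.63 ± 0.09, adjusted p = 5.96e-05; difference between days 0.16 ± 0.14, 0.622), and so was Ifi202b (1.68 ± 0.29, 3.79e-04; -0.25 ± 0.46, 0.852). Irf9 passed on both days, at 0.31 ± 0.07 on day 3 (0.0118; 0.30 ± 0.10, 0.132).

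Of the 9 genes described with the amino acid response that passed on day 1, synthetases and Slc43a2 included, Mthfd2, Slc7a5, Aars and Cars passed as lower on both days. Slc7a5 stood at -0.54 ± 0.06 on day 3 (adjusted p = 8.12e-07; day 1 minus day 3, 0.25 ± 0.09, 0.16) and Mthfd2 at -0.40 ± 0.06 (2.00e-04; -0.03 ± 0.09, 0.925), and 13 of the 29 ATF4 genes passed on day 3, all lower (0.901% of all genes were). Fos did not differ on day 3 beyond its error (0.01 ± 0.11, adjusted p = 0.978), and its difference between the days passed (-0.74 ± 0.15, 0.0102). Npas4 stood at -0.27 ± 0.21 on day 3 (0.526), and its difference between the days did not pass (-0.90 ± 0.27, 0.093). Rdh10 was lower in mSOD1 medium on day 1 and higher on day 3 (0.47 ± 0.08, 2.00e-04; -0.88 ± 0.11, 5.97e-06).

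**Figure D5:**
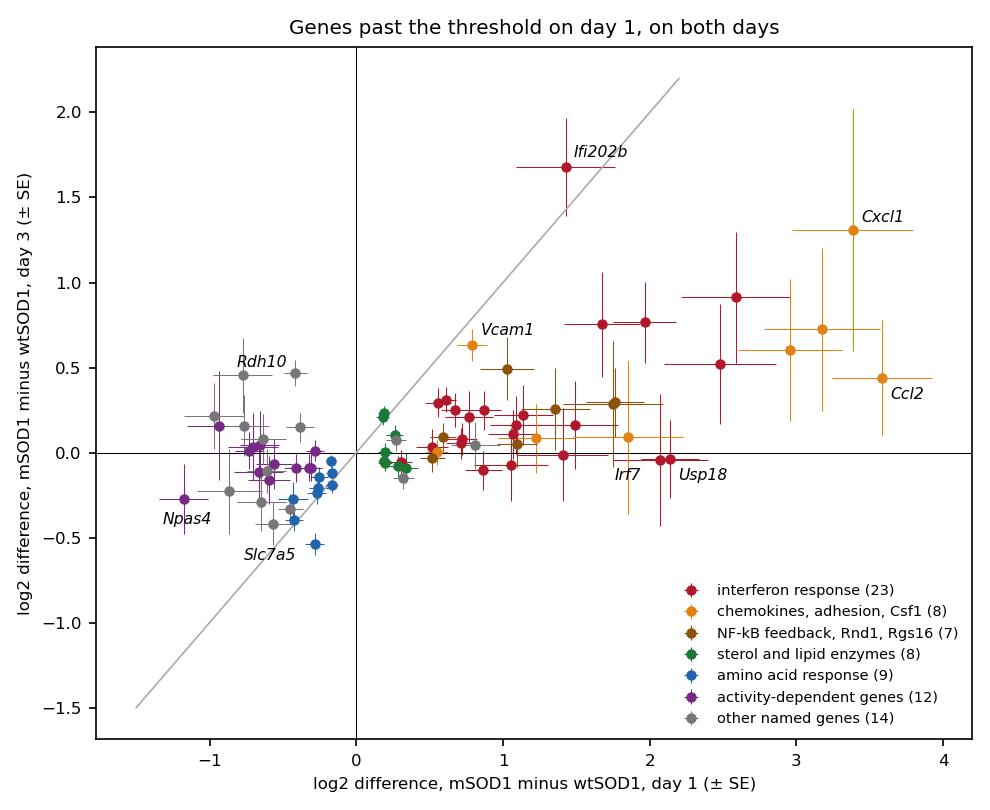
Log2 differences (± SE), mSOD1 minus wtSOD1 medium, on day 1 (horizontal axis) and day 3 (vertical axis) for 81 genes past the threshold on day 1, coloured by group; the grey line marks equal values and Tmem30c is left out. Most interferon, chemokine and NF-kB genes lie closer to 0 on day 3 than on day 1 (Usp18 at -0.04, Ccl2 at 0.44), with Ifi202b (1.68) as an exception, while Slc7a5 and Mthfd2 lie below 0 on both days.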

How the data were processed

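The deposited files give whole read counts per gene, as the file headers show; TopHat 1.3.3, DESeq and build mm9 appear in the submitters' processing notes. Counting program, annotation and strandedness are unknown from the sources at hand. The authors also deposited a column of transformed expression on a log2-like scale (VSE in the headers), used only as an alternative. The main test was edgeR 4.0.16 in R 4.3.3 (quasi-likelihood, robust, TMM, filterByExpr by group, which kept 15207 of 21761 genes), with all 36 libraries in 1 fit of 6 group means, 30 residual degrees of freedom and no block. P-values were adjusted by Benjamini-Hochberg over every gene in the fit (threshold 0.05), and folds are log2 estimates with their SE. CPM used TMM-scaled sizes, and logarithms a prior count of 2. Sequencing depth per library is given with the results.

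Same-numbered libraries were read as pairs because the labels give a shared experiment number. Deviations from the medium's mean correlated by 0.0876 to 0.383 within numbers (5 of 6 pairs over 0.1, mean 0.222). The mean between numbers, -0.045, is no separate comparison, because deviations cancel within a medium and the within-number mean nearly sets it. No 2 libraries were alike within sampling noise (chi-square per degree of freedom 3.45 to 57.1 over 30 pairs). The 48 gene lists hold 852 entries, of which 850 matched a gene in the files. Members and lists were chosen with earlier results of these data known. The rule for named genes took, among those with adjusted p below 0.05, a mean log2 CPM of 1 or more and 5 or 6 of 6 pairs in 1 direction, up to 15 per direction by fold, with up to 4 per list by lowest p, up to 6 called only with and 6 only without wtSOD1 replicate 4, and 12 fixed genes. Other genes named were chosen after their values were seen. Alternatives were DESeq2 1.42.0, RLE scaling, other filters, blocks, limma 3.58.1 with voom weights or on the deposited log2 values, a thinned replicate 4 and left-out libraries, and, chosen after seeing the data, leaving out NTg replicate 6 from the comparisons with NTg. Promoter sequences are from RefSeq (GRCm38.p6) and overlaps from a GRCm38 annotation, both by gene identifier, with no coordinates converted. A few genes are not reported here.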

Additional observations from a re-analysis of the deposited data

Results flagged for a closer look

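In 198 groups of 6 libraries examined, 17 held a highest or lowest library far from the rest (gap over range above Dixon's 95% critical value), where chance gives about 1 in 20. In mSOD1 replicate 5 the level was low for 6 interferon genes: 12.5 CPM for Oasl2, 2.81 for Oas1b, 30.8 for Stat2, 38.8 for Trim25, 6.46 for Irgm1 and 34 for Eif2ak2. Other mSOD1 libraries stood out for Ifi202b (3.33 CPM) and Iars (142 CPM) in replicate 2, for Hdac9 (21.3 CPM) and Kcnq3 (15.3 CPM) in replicate 6, and for Arc (1.81 CPM) and Fgf3 (0.862 CPM) in replicate 1. Among wtSOD1 libraries, replicate 4 stood out for Tmem30c (95.3 CPM), Rgs16 (18.4 CPM) and Arhgef6 (6.94 CPM), replicate 2 for Ifit1 (0.0761 CPM) and replicate 3 for Icam1 (0.343 CPM).

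The mSOD1 against wtSOD1 difference was another size on day 3 for 23 of the 99 genes examined, by edgeR's test of day 1 minus day 3 adjusted over all genes. Over all 15207 genes tested, 90 passed it (0.592%). Of the 99, 82 had passed on day 1 in either direction. The test uses those same day 1 values again, so the 2 shares cannot be compared. Positive values on the log2 scale were found for Usp18 (2.17), Irf1 (0.97), Irf7 (2.11), Xaf1 (0.96), Ddx58 (0.64), Ifitm3 (0.66), Ccl2 (3.15), Art3 (2.36), Csf1 (0.55), Nfkbia (1.47), Nfkb2 (0.55), Rnd1 (1.05), Rgs16 (0.50), Sqle (0.24), Nsdhl (0.37), Insig1 (0.29) and Pgpep1 (0.47). Negative values were found for Fos (-0.74), Ano1 (-1.23), Fgf3 (-1.18), Rdh10 (-0.88), Lrrk2 (-0.53) and Osmr (-0.76). Without wtSOD1 replicate 4, 12 of the 23 kept an adjusted p below 0.05. Those lost were Irf7 (0.0735), Ifitm3 (0.0524), Art3 (0.0666), Nfkb2 (0.0524), Rgs16 (0.0895), Sqle (0.096), Nsdhl (0.0559), Insig1 (0.0536), Ano1 (0.086), Fgf3 (0.0735) and Lrrk2 (0.113). With the replicate block all 23 passed, with or without that library.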

How the results depend on the processing

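Signs were kept in most cases, while counts changed. The 153 genes had been chosen on libraries that these settings share, so kept signs are no separate check of direction. All of the 153 genes that could be tested kept their sign under each setting, apart from Tmem30c, whose log2 difference ran from -5.50 (without experiment 2) to 0.0208 (without experiment 4). Counts of genes were 65 (43 higher, 22 lower) with the 12 libraries only, 95 (30 lower) without wtSOD1 replicate 4 and NTg replicate 6, and 97 (35 lower) with voom weights. With the replicate block within each day they were 577 (261 higher, 316 lower), with a block shared by both days 234 (114 lower), and with the block but without wtSOD1 replicate 4 312 (155 higher, 157 lower). Genes whose difference changed between days numbered 233 in DESeq2, and with the blocks 1649, 599 and 1284. Without 1 library the day 1 count was 84 to 166 (54 to 84 higher, 27 to 82 lower), and 31 to 155 between days. Without a whole experiment it was 61 to 133 (44 to 75 higher, 17 to 58 lower), and 27 to 105 between days. The share of calls that were higher was 53.6%, against 66.2% with 12 libraries, 68.4% without wtSOD1 replicate 4 and NTg replicate 6, 63.9% with voom weights and 67.9% without wtSOD1 replicate 4. The cause was not tested. DESeq2 gave 200 genes, RLE scaling 151, no filter 142, a stricter filter 151, a thinned replicate 4 126 and the deposited log2 values 133. Of 82 named genes called, 45 kept their call without each single library. In a fit chosen after seeing the data, without NTg replicate 6, 83 genes passed between mSOD1 and NTg medium (64 with it) and 7 between wtSOD1 and NTg medium (4 with it). Counts below about 1 CPM rest on few reads.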

Other observations

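Beyond the genes named above, further interferon-induced genes were among the 82 higher in mSOD1 medium; they were chosen after their values were seen. The oligoadenylate synthetase genes Oas1a (1.86 ± 0.39, adjusted p = 0.00647), Oas1g (2.04 ± 0.38, 0.00195) and Oas1c (0.99 ± 0.20, 0.00494) were higher in edgeR without overlap between the media, as were the antiviral GTPase Mx2 (2.03 ± 0.38, 0.00193) and Rsad2 (1.62 ± 0.39, 0.0264). Rsad2 did not pass without wtSOD1 replicate 4 (0.0546). The secreted glycoprotein Lgals3bp had medians of 11.6 CPM in mSOD1 and 6.14 CPM in wtSOD1 medium (0.94 ± 0.17, 7.56e-04). Pdgfb, a chain of the platelet-derived growth factor, had medians of 12.8 CPM in mSOD1 and 7.26 CPM in wtSOD1 medium (0.68 ± 0.14, 0.00489) and Hbegf, a ligand of the EGF receptor, of 54.5 CPM in mSOD1 and 42.4 CPM in wtSOD1 medium (0.36 ± 0.08, 0.0229, but 0.0934 without replicate 4).

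Among the 71 lower genes were members of the monocarboxylate transporter family. Slc16a6 had medians of 34.9 CPM in mSOD1 and 45.3 CPM in wtSOD1 medium (-0.39 ± 0.06, adjusted p = 2.23e-04) and Slc16a9 of 7.87 and 11.8 CPM (-0.56 ± 0.11, 0.00255), both without overlap in edgeR's comparison and both kept without replicate 4 (0.00192 and 0.00166). Of 3 kinase genes chosen after their values were seen, Pak6 differed by -0.45 ± 0.10 (0.019), Mapk10 by -0.23 ± 0.06 (0.0264) and Camk2d by -0.20 ± 0.05 (0.0304). Without replicate 4 these did not pass (0.109, 0.116 and 0.147).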
